A study of Rattus norvegicus with 8 samples.

Results

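The 4 arrays described here carried lung RNA of rats that had received normal saline, without cobalt, and were then exposed to hypobaric hypoxia. They were chosen by the pretreatment in their labels and make up 4 of the 8 arrays of the series. The rats had saline for 7 days and then spent 6, 12, 24 or 48 h at a pressure equal to 30000 ft of altitude. On each saline array the hypoxia RNA was labelled with Cy5 (red) and the RNA of saline rats at 0 h with Cy3 (green). The other 4 arrays held rats given cobalt at 12.5 mg per kg body weight for the same 7 days and exposed to the same altitude for the same durations, each set against 0 h cobalt RNA. There the hypoxia RNA was in Cy3. Each duration had 1 array per pretreatment, and the labels give neither the strain, sex or age of the rats nor the number of animals behind an RNA. The 4 saline arrays have 0 h RNA of one label in common, so the spread of the controls enters no p-value. With hypoxia RNA in Cy5 throughout, a bias between the dyes does not cancel in the saline mean.

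Cells short of oxygen stop hydroxylating the alpha subunits of the hypoxia-inducible factors (HIF), which then pair with ARNT and bind short DNA sites with the core letters ACGTG or GCGTG. Their targets raise glucose uptake and glycolysis, spare oxygen in mitochondria, and act on vessels, iron and red cell formation. In the lung, alveolar hypoxia also constricts the small pulmonary arteries, loads the endothelial barrier and slows the clearance of alveolar fluid by type I and type II epithelial cells.

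Each value is a log2 ratio, hypoxia divided by 0 h, so that 1 means a doubling. Means over the 4 saline arrays are limma estimates ± SE. Their SE and p-values rest on a spread per gene estimated from the saline and cobalt arrays together. That spread can be narrower or wider than the spread of the saline ratios printed beside it. A gene is said to rise or fall where its Benjamini-Hochberg adjusted p over all genes tested was under 0.05. Of 24141 genes tested, 9687 (40.1%) differed from 0 h, 5261 higher (21.8%) and 4426 lower (18.3%). At least 2-fold changes were seen in 356 (1.47%) higher and 331 (1.37%) lower of these genes. The median of all genes was 0.03, and the gene lists below are to be read against these shares. Normalizing by the array median in place of an intensity curve (loess) moved the median of all genes to 0.28 and gave 11990 higher and 2269 lower genes. Before loess, the median ratio of saline arrays ran from -0.07 in the dimmest sixth of genes to 0.97 in the brightest, and that of cobalt arrays from 0.38 to -1.07. Directions that turned under median centring are stated beside the gene or list or in the closing section. A red signal was saturated on all 4 saline arrays for 75 genes, of which 7 were higher and 49 lower. Their median was -0.46 on saline arrays, and 0.45 on cobalt arrays, where hypoxia RNA was in the green channel. The share of spots well above background on the saline arrays was 62.8% to 67.2% for the 0 h RNA and 68.2% to 72.7% for the hypoxia RNA. The 12 h array stood apart, with the widest spread of ratios (SD 0.55, against 0.408 to 0.488 on the other arrays) and the most genes past 2-fold (948 higher and 717 lower). Its title is also the only saline one with the sample letter a, the other 3 having b and the cobalt arrays a. The labels do not say what the letter means, and letter and duration cannot be told apart here. For several results that lean on the 12 h array, the value without it is given as well.

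Among called genes with a symbol on one side of 0 on all 4 saline arrays, Scgb3a1, Ccn3 and Chia had the highest saline estimates and Cyp1a1, Vipr1 and RT1-CE10 the lowest. In whole lung RNA, fewer cells of a type and less RNA per cell cannot be told apart, here and in the cell lists below. Scgb3a1, a secretoglobin of airway secretory cells, had the highest estimate of any named gene. Its ratios were 0.87 at 6 h, 5.19 at 12 h, 2.49 at 24 h and 3.88 at 48 h. All 4 lay above 0, but the 12 h and 48 h arrays were far above the 6 h array. Its red signal was saturated on 1 of the 4 arrays, so the size is inexact. The estimate was 3.11 ± 0.57 (8.61-fold, adjusted p = 0.00253), and 2.41 without the 12 h array or 3.85 without the 6 h array. Ccn3, a matricellular protein of the CCN family, was at 3.31, 3.15, 2.72 and 2.23 in order of duration, a rise of 2.85 ± 0.17 (7.23-fold, adjusted p = 1.29e-05). Chia, the acidic mammalian chitinase of alveolar and airway epithelium, was at 2.45, 2.63, 2.62 and 2.42. It was 5.77-fold higher (adjusted p = 6.01e-06), a size left inexact because its red signal was saturated on all 4 arrays. Its log2 estimate was 2.19 with scaling between arrays and 3.78 with median centring.

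Gp2, a glycoprotein known from the surface of secretory granules and of antigen-sampling epithelium, had the 12 h array highest and the 48 h array next, as Scgb3a1 did. It stood at 1.09 at 6 h, 4.56 at 12 h, 0.94 at 24 h and 3.17 at 48 h, with an estimate of 2.44 ± 0.52 (adjusted p = 0.0052) and 1.73 without the 12 h array. Agr2, a disulphide isomerase that mucous cells need to fold mucins, was at 0.42, 5.22, 1.35 and 2.71. It rose by 2.42 ± 0.59 (adjusted p = 0.0102), and by 1.49 without the 12 h array or 3.09 without the 6 h array. Cfi, the complement factor I protease, was highest at 12 h too, at 3.83 against 1.52 at 6 h, 1.58 at 24 h and 2.26 at 48 h. Its estimate was 2.29, and 1.78 without the 12 h array.

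The kininogens Kng1 and Kng2, precursors of the kinins, were at 2.39 ± 0.23 (adjusted p = 0.00012) and 2.43 ± 0.24 (adjusted p = 0.000127). Kng1 ratios were 2.97 at 6 h, 2.22 at 12 h, 1.64 at 24 h and 2.71 at 48 h. Rat kininogen genes are close in sequence, and their probes may read each other's transcripts. The cholinergic modulator Slurp1 (2.52 ± 0.32), osteopontin (Spp1, 2.49 ± 0.38), a secreted ligand of integrins, and Dlg2 (2.32 ± 0.16), a synaptic scaffold protein, complete the 12 highest. Spp1 was at 2.35, 3.17, 1.20 and 3.23, lowest at 24 h.

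**Figure D1:**
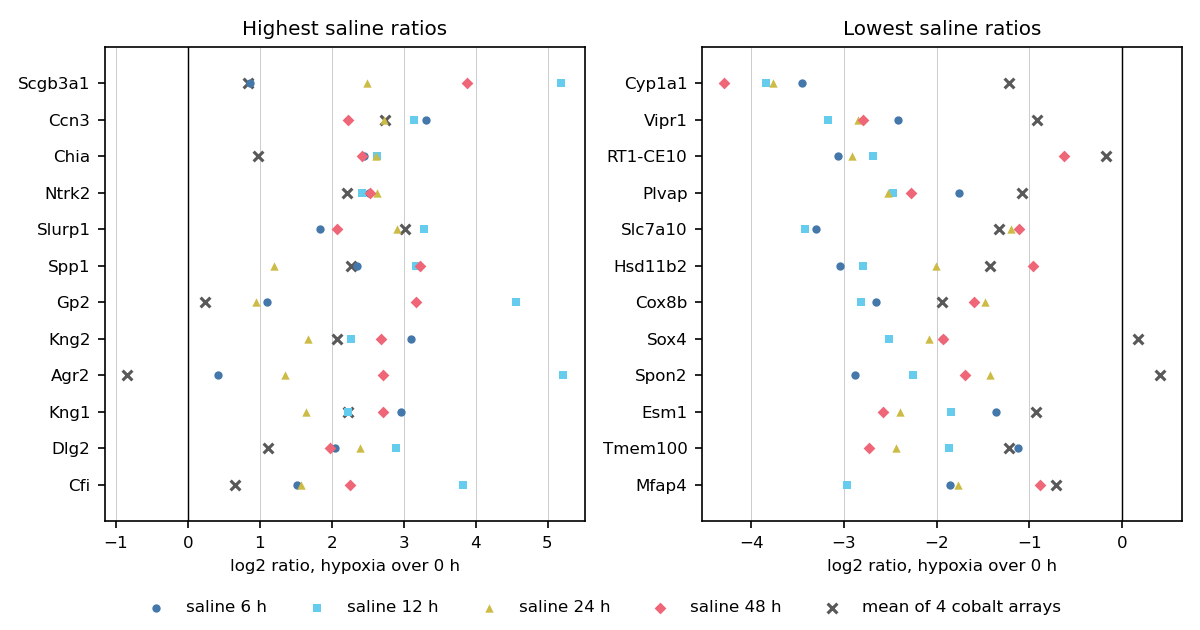
Log2 ratios of hypoxia over 0 h (x axis) of the 12 named genes with the highest (left) and the 12 with the lowest (right) saline estimates; coloured points are the 4 saline arrays by duration and crosses the mean of the 4 cobalt arrays. Every saline point lies on the same side of 0 for each gene, which was a condition of their choice, and Scgb3a1, Gp2 and Agr2 spread most, with 12 h highest.

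Cyp1a1, the aryl hydrocarbon receptor target that oxidises polycyclic compounds, had the lowest ratio of all named genes. It stood at -3.45 at 6 h, -3.85 at 12 h, -3.76 at 24 h and -4.30 at 48 h, with an estimate of -3.84 ± 0.12 (adjusted p = 1.96e-07). Its hypoxia signal was well above background on 2 of the 4 arrays, which limits how well the size is known; the software's log ratio, computed without an offset, was -6.17. Vipr1, the receptor of the vasodilator VIP, was at -2.42, -3.17, -2.85 and -2.80 (estimate -2.81 ± 0.12, 7.01-fold lower, adjusted p = 2.54e-06). All 4 ratios lay far below 0 for both genes.

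Plvap, which builds the diaphragms of endothelial caveolae and fenestrae, fell by 2.26 (SE 0.11, adjusted p = 7.53e-06), with -1.75 at 6 h and -2.52 to -2.28 from 12 h on. Tmem100, an endothelial membrane protein downstream of BMP9, was at -1.12, -1.87, -2.44 and -2.73, and Esm1, the endothelial proteoglycan endocan, at -1.36, -1.85, -2.40 and -2.58. For both genes the lowest of the 4 ratios was that of the 48 h array and the highest that of the 6 h array, each duration being a single array. Hsd11b2, which inactivates corticosterone, ran the other way, at -3.04, -2.80, -2.01 and -0.96 (estimate -2.20 ± 0.28, adjusted p = 0.000422).

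Other genes among the 12 lowest were the amino acid transporter Slc7a10 (-2.26 ± 0.43), the transcription factor Sox4 (-2.11 ± 0.13), the matrix proteins Spon2 (-2.06 ± 0.20) and Mfap4 (-1.87 ± 0.30) and the cytochrome oxidase subunit Cox8b (-2.13 ± 0.28). Mfap4 was at -1.50 without the 12 h array. The 3 probes of Cox8b disagreed, from -2.13 to -0.19, and those of Sox4 ran from -2.11 to -0.66. RT1-CE10, a class I histocompatibility gene, was at -3.06, -2.68, -2.91 and -0.62. Rat class I genes are a family of close copies, so this value is uncertain as to which member it reads, and its software log ratio was -3.72. The offset draws ratios of dim genes toward 0, and among the leading genes the software's value was over 1.5 times larger for Gp2 (3.92) and Dlg2 (3.54) as well.

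Ntrk2, the receptor TrkB of brain-derived neurotrophic factor, varied least among the strong increases. It was at 2.52 at 6 h, 2.43 at 12 h, 2.63 at 24 h and 2.54 at 48 h, a rise of 2.53 ± 0.09 (5.77-fold, adjusted p = 3.76e-07). A further Ntrk2 probe, at chr17:11495183-11495242 of the rn3 assembly named in the files, gave a saline mean of 1.59, and the brighter probe lies at chr17:11754284-11754343. The 4 highest saline ratios of all features tested were those of 4 probes without a gene symbol that lie between these, within chr17:11676759-11680108. They were singled out after their values were seen. Their saline means were 3.64, 3.60, 3.46 and 3.21, with single arrays from 2.95 to 3.90, and their cobalt means ran from 2.90 to 3.23. The file describes one of them as a truncated trkB receptor, a form that lacks the kinase. The probe at the next higher coordinates, chr17:11681341-11681400, had a saline mean of 0.16 and did not pass the filter. Whether these probes lie in exons or introns was not determined, since no annotation of that assembly was used.

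Of the HIF alpha subunits, Epas1 fell and Hif1a rose slightly. Epas1, which encodes the HIF-2 alpha subunit abundant in lung endothelium and type II cells, was at -1.66, -2.10, -1.92 and -1.72, clear of 0 at every duration. Its estimate of -1.85 ± 0.10 (3.6-fold lower, adjusted p = 8.17e-06) was the lowest in a list of 15 HIF subunits and oxygen sensing genes, of which 2 were higher, 4 lower and 9 did not pass (13.3% higher and 26.7% lower, against 21.8% and 18.3% of all genes). Hif1a, the HIF-1 alpha subunit, rose by 0.39 ± 0.12 (adjusted p = 0.0268), a call that ended without the 12, 24 or 48 h array (adjusted p = 0.1, 0.069 and 0.072) and with scaling between arrays (adjusted p = 0.16). Egln3, a prolyl hydroxylase that HIF itself induces, rose by 0.45 ± 0.09, from 0.21 at 48 h to 0.64 at 12 h. Hif3a, an inhibitory alpha subunit, fell by 0.36 (SE 0.07). The hydroxylase Egln2 had an estimate of -0.54 ± 0.10, which turned to 0.20 with median centring, as did the list median, from -0.16 to 0.30. That median was -0.09 without the 24 h array and -0.08 without the 48 h array.

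Glycolysis and lactate genes were mostly higher, with 14 of 23 tested higher, 1 lower and 8 not passing, at a median of 0.48. The list medians were 0.89 at 6 h, 0.40 at 12 h, 0.18 at 24 h and 0.38 at 48 h, and the median was 0.31 without the 6 h array. Eno2, an enolase that HIF-1 induces outside neurons, was at 1.47, 1.91, 1.59 and 1.65 (estimate 1.65 ± 0.15, 3.14-fold, adjusted p = 8.35e-05). The aldolase Aldoc was at 1.11, 0.83, 0.99 and 1.21 (estimate 1.03 ± 0.14, and 1.59 in the software's log ratio), and these 2 genes did not fall off with duration. Pfkl, the liver-type phosphofructokinase, was at 1.49, 1.02, 0.86 and 0.66 (estimate 1.01 ± 0.14, adjusted p = 0.000731). The glucose transporter Slc2a1 was at 1.23, 1.42, 0.66 and 0.68 (estimate 1.00 ± 0.16, adjusted p = 0.00143), higher on the 2 earlier arrays. Lactate dehydrogenase Ldha was at 1.06, 0.40, 0.00 and 0.52 (estimate 0.49 ± 0.15, adjusted p = 0.0242). Its call ended without the 6, 12 or 48 h array (adjusted p = 0.086, 0.051 and 0.066), in the saline arrays alone (0.063) and with scaling between arrays (0.094), and the estimate was 0.31 without the 6 h array. The only member that fell was Pfkfb4, a regulator of phosphofructokinase (-0.59 ± 0.09).

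HIF targets outside glycolysis went both ways, with 14 of 29 tested higher, 4 lower and 11 not passing, and a median of 0.36. Lox, which cross-links collagen and elastin, was at 2.72, 1.71, 1.34 and 1.46 (estimate 1.81 ± 0.27, adjusted p = 0.000899). The mitophagy receptor Bnip3 was at 2.25, 1.80, 1.49 and 1.13 (estimate 1.67 ± 0.17, adjusted p = 0.000129), highest at 6 h and lowest at 48 h. P4ha2, a collagen prolyl hydroxylase, was at 1.54, 1.47, 1.20 and 1.06 (estimate 1.32 ± 0.10, adjusted p = 3.64e-05). The angiogenic factor Vegfa went down on every array, at -1.41, -1.76, -1.31 and -1.47 (estimate -1.49 ± 0.09, adjusted p = 2.01e-05), and its other probe gave -1.78. The chemokine receptor Cxcr4 fell by 1.42 (SE 0.10, adjusted p = 3.77e-05). Adrenomedullin (Adm, 0.77 ± 0.33, adjusted p = 0.092) and haem oxygenase (Hmox1, 0.48 ± 0.20, adjusted p = 0.0741) did not pass. Both passed with median centring (1.75 and 1.14), and Adm in the saline arrays alone (adjusted p = 0.022).

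**Figure D2:**
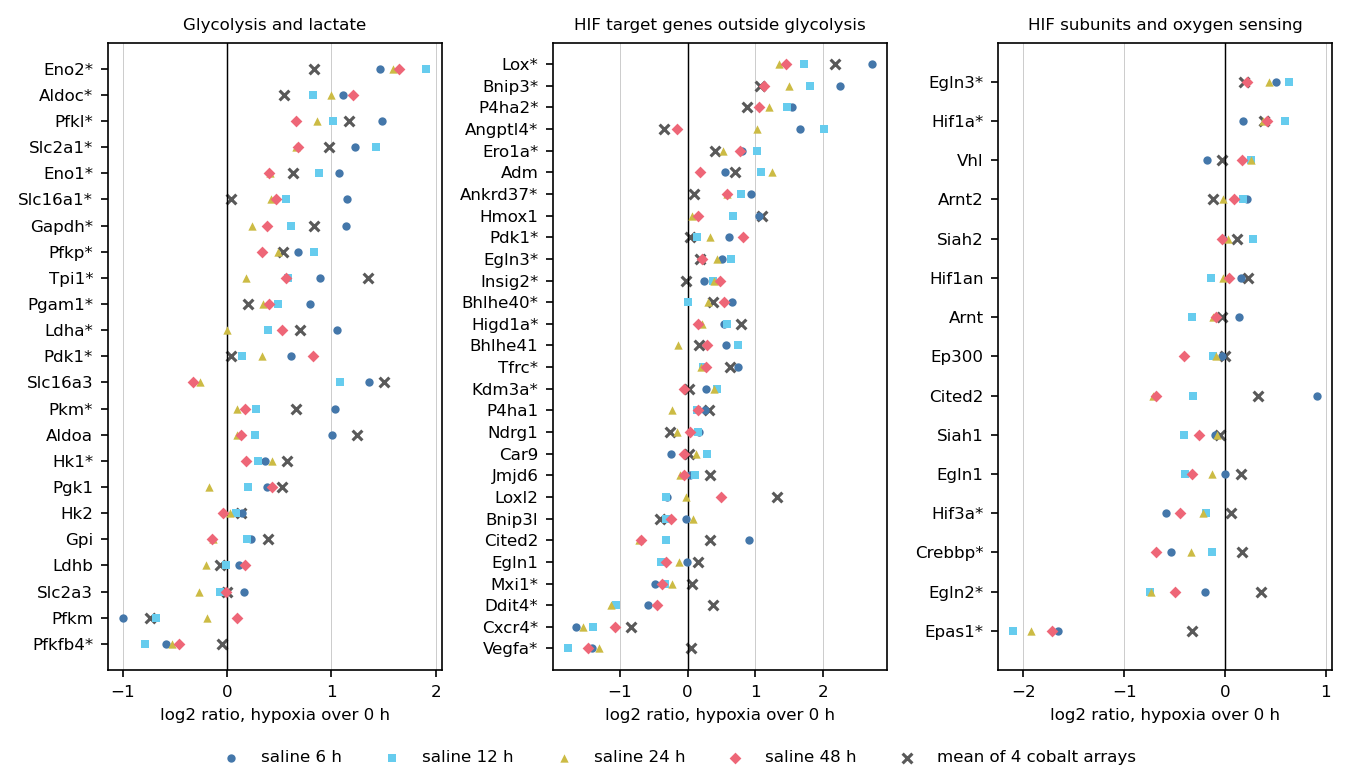
Log2 ratios of hypoxia over 0 h (x axis) of tested members of 3 lists, glycolysis, HIF targets (28 of 29 shown) and oxygen sensing; points are the 4 saline arrays by duration, crosses the cobalt mean, and an asterisk marks members called in saline. Bnip3 ran from 2.25 at 6 h to 1.13 at 48 h, whereas Vegfa lay between -1.76 and -1.31 and Epas1 between -2.10 and -1.66 in saline; Egln2 turned to 0.20 with median centring.

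Because these genes are known for HIF sites near their starts, the 250 bases before the annotated start were read for ACGTG and GCGTG on both strands. On the reverse strand these read CACGT and CACGC, and ACGTG overlaps its own reverse in CACGTG. Only members called higher in both pretreatments and with a promoter in the reference were considered for display, and Lox was not among the windows read. Shown are the 4 of these with the highest mean of saline and cobalt estimates whose window holds ACGTG. Both letter groups are in capitals (RefSeq, GRCr8, 5′ to 3′ along the gene). The windows are chr1:203154963-203155212 (minus strand) for Bnip3, chr4:159267221-159267470 (minus) for Eno2, chr10:38743644-38743893 (plus) for P4ha2 and chr5:138002272-138002521 (plus) for Slc2a1.
Bnip3: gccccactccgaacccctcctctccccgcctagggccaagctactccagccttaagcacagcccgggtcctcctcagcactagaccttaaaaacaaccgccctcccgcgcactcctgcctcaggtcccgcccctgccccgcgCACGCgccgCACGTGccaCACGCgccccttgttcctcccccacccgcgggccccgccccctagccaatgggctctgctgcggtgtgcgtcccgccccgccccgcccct
Eno2: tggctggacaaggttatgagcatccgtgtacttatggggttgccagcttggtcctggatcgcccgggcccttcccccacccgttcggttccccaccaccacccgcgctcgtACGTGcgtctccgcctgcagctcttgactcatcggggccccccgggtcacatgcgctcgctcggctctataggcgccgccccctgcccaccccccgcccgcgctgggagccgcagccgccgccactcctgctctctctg
P4ha2: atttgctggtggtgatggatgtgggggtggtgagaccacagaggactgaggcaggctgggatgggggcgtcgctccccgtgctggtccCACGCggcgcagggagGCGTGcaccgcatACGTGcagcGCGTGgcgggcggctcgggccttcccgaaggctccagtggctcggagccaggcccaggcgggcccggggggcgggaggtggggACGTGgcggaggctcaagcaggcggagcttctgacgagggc
Slc2a1: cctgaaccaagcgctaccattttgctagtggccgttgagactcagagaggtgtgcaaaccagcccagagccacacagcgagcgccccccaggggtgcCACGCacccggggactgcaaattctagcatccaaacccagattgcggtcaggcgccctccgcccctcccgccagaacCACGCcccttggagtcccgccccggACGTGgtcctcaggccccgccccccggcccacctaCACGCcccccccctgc

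Of 22 glycolysis members with a promoter in the reference, 14 (63.6%) held ACGTG or GCGTG, and of the 14 members called higher in saline, 11 (78.6%) did. Of the 8 not called higher, 3 (37.5%) did. Among HIF targets the letters were found in 18 of 25 (72.0%) and, of those called higher, in 9 of 11 (81.8%). They were also found in 9 of 14 HIF targets not called higher (64.3%). The background was 37.9% of 27457 promoters and 52.5% of 9820 promoters of named genes tested. The shares of ACGTG alone were 40.9% in glycolysis and 52.0% in HIF targets, against 16.9% of all promoters and 21.1% of those of named genes tested. A match of 5 letters is a description of the window and no evidence of binding.

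Of 35 genes of the mitochondrial respiratory chain, 12 were higher (34.3%, against 21.8% of all genes), 2 lower and 21 not passing. Their median was 0.05, and 0.10 without the 6 h array or 0.12 without the 12 h array. Cox5b, a structural subunit of cytochrome oxidase, rose by 0.78 ± 0.07 (0.75, 0.93, 0.72 and 0.71), although its other probe gave 0.28. Cytochrome c (Cycs) rose by 0.50 ± 0.06 and the Rieske iron-sulphur protein Uqcrfs1 by 0.53 ± 0.06. In fatty acid oxidation 7 of 18 genes were higher and 1 lower, with a median of 0.23, and 0.12 without the 6 h array. The acyl-CoA dehydrogenase Acadl rose by 0.48 ± 0.09 and the carnitine enzyme Cpt2 by 0.31 ± 0.08 (adjusted p = 0.053 in the saline arrays alone). Acot1, a cytosolic acyl-CoA thioesterase induced by PPAR alpha, went from 3.16 at 6 h and 2.70 at 12 h to 1.71 at 24 h and 0.08 at 48 h. Its call (estimate 1.91 ± 0.52, adjusted p = 0.016) ended without the 6 h or the 12 h array (adjusted p = 0.07 and 0.068), and the estimate was 2.52 without the 48 h array. In cholesterol and fatty acid synthesis 2 of 20 genes rose and 2 fell (10% each), below the shares of all genes. Squalene epoxidase (Sqle) was higher by 0.89 ± 0.15, and the stearoyl-CoA desaturase Scd fell by 1.13 (SE 0.21), a call lost with median centring (-0.35).

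Endothelial genes were lower, with 17 of 24 identity genes falling, none rising and 7 not passing, at a median of -0.62, which became 0.33 with median centring. Tie1, an orphan receptor of the angiopoietin pathway, was at -0.94, -1.52, -1.14 and -0.97 (estimate -1.14 ± 0.13, adjusted p = 0.000196). Tek, the angiopoietin receptor TIE2, was at -0.89, -0.96, -1.13 and -0.89 (estimate -0.97 ± 0.08, adjusted p = 6.35e-05), with its other probe at -0.41. Endoglin (Eng), a TGF-beta co-receptor, fell by 1.05 (SE 0.11), which did not pass with median centring (-0.27). Lyve1, the hyaluronan receptor of lymphatic endothelium, was at -0.41 at 6 h and between -1.94 and -1.64 from 12 h on (estimate -1.45 ± 0.22, adjusted p = 0.000872).

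The VEGF and angiopoietin system had 8 of 14 genes lower, none higher and 6 not passing, with a median of -0.50, and -0.22 with median centring. Besides Vegfa, Tek and Tie1, the lymphatic receptor Flt4 fell by 0.50 (SE 0.06, adjusted p = 0.000221). List medians stood between -0.64 at 6 h and -0.28 at 24 h.

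Genes of vascular tone were split, with 7 of 29 higher and 12 lower, at a median of -0.25 that became 0.25 with median centring and was -0.17 without the 12 h array and -0.04 with no filter on dim probes. The serotonin transporter Slc6a4, which clears serotonin in lung endothelium, was between -1.58 and -0.96 (estimate -1.22 ± 0.13, adjusted p = 0.000179). Both kininogens and Vipr1 belong here as well. Endothelin-1 (Edn1, -0.37 ± 0.21, adjusted p = 0.188) and endothelial nitric oxide synthase (Nos3, 0.11 ± 0.19, adjusted p = 0.678) did not pass. Edn1 passed with duration as a block (adjusted p = 0.019), was -0.17 without the 48 h array and turned to 0.36 with median centring. Nos3 was at 0.82, 0.28, -0.12 and -0.55, on either side of 0, and between -0.13 (without 6 h) and 0.33 (without 48 h).

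Leukocyte adhesion molecules had 7 of 12 genes lower and 1 higher, with a median of -0.39 that turned to 0.28 with median centring. It was -0.21 with no filter on dim probes and -0.79 in the software's log ratio. The gene that rose was E-selectin (Sele), which captures leukocytes on activated endothelium, by 0.50 ± 0.09 (adjusted p = 0.00236). The leukocyte integrin subunit Itgal fell by 0.75 (SE 0.14). Icam1, an integrin ligand, had an estimate of -0.78 ± 0.19, with -1.66 at 12 h against -0.57 to -0.33 at the other durations. It was -0.49 without the 12 h array and turned to 0.47 with median centring.

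Smooth muscle contraction genes rose in 8 of 13 cases, fell in 2 and did not pass in 3, with a median of 0.80. Desmin (Des), the intermediate filament of muscle, was at 1.63, 1.47, 1.81 and 1.93 (estimate 1.71 ± 0.11, 3.27-fold, adjusted p = 2.31e-05). Enteric actin Actg2 was at 1.42, 1.28, 1.69 and 1.78 (estimate 1.54 ± 0.12, adjusted p = 3.8e-05). Calponin Cnn1 rose by 1.09 ± 0.14. The tropomyosin Tpm2 was 2.24-fold higher (adjusted p = 0.000213), a size left inexact because its red signal was saturated on all 4 arrays. Its log2 estimate was 1.01 with scaling between arrays and 2.49 with median centring. All 4 ratios of each of these genes lay above 0.

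Cardiac and skeletal muscle genes, which a lung sample can hold through the muscle sleeves of pulmonary veins or adjoining heart, were higher in 8 of 15 cases and lower in none, with a median of 0.42, and 1.18 in the software's log ratio. Myh6, the atrial myosin heavy chain, was at -0.12 at 6 h, 2.85 at 12 h, 0.23 at 24 h and 3.73 at 48 h. Its signal was well above background on only 2 of the 4 saline arrays in either channel. This limits how well its ratios are known, those near 0 included. Its call (estimate 1.67 ± 0.53, adjusted p = 0.0314) ended without the 12 h or the 48 h array (adjusted p = 0.13 and 0.12), with 0.98 without the 48 h array and 2.27 without the 6 h array, and in the saline arrays alone (adjusted p = 0.088). Cardiac troponin T (Tnnt2), at 0.93, 2.07, 2.05 and 3.26, rose by 2.08 ± 0.33 (adjusted p = 0.00112). The part of such tissue in the other results was not tested. On the 6 h and 24 h arrays Myh6 was at -0.12 and 0.23 and Tnnt2 at 0.93 and 2.05. Tnni3, another cardiac troponin, was at 0.74 and 0.16 there, Des at 1.63 and 1.81 and Actg2 at 1.42 and 1.69.

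Matrix genes moved in both directions, as did all genes (21.8% higher and 18.3% lower). Of 25 genes for collagens, elastic fibres and cross-linking, 6 were higher and 6 lower (24% each), near the shares of all genes. List medians ran from -0.48 at 12 h to 0.40 at 48 h (median of estimates -0.14, and 0.58 with median centring). Fibronectin (Fn1) was at 1.06, 1.56, 1.62 and 1.43 (estimate 1.42 ± 0.16, adjusted p = 0.000193), with 0.97 for its other probe. The 28 matricellular, TGF-beta and activin genes had 8 higher (28.6%) and 6 lower (21.4%), with a median of 0.18, and 0.03 without the 6 h array. Ccn2, the connective tissue growth factor, was at 2.21, 1.74, 2.42 and 1.96 (estimate 2.08 ± 0.12, 4.23-fold, adjusted p = 9.95e-06). Follistatin (Fst), which binds activin, was at 2.61, 2.20, 2.18 and 1.69 (estimate 2.17 ± 0.17, adjusted p = 4.67e-05). Smad6, an inhibitor of BMP signalling, went down, at -1.29, -1.88, -1.84 and -1.88 (estimate -1.72 ± 0.11, adjusted p = 2.52e-05). Among 13 metalloproteinases and inhibitors, 5 rose (38.5%) and 2 fell (15.4%). The inhibitor Timp1 was at 2.52, 2.61, 1.40 and 1.47 (estimate 2.00 ± 0.26, adjusted p = 0.00044), higher on the 2 earlier arrays. The aggrecanase Adamts1 rose by 1.52 ± 0.14, and the membrane metalloproteinase Mmp14 fell by 1.20 (SE 0.17), which did not pass with median centring (-0.26).

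**Figure D3:**
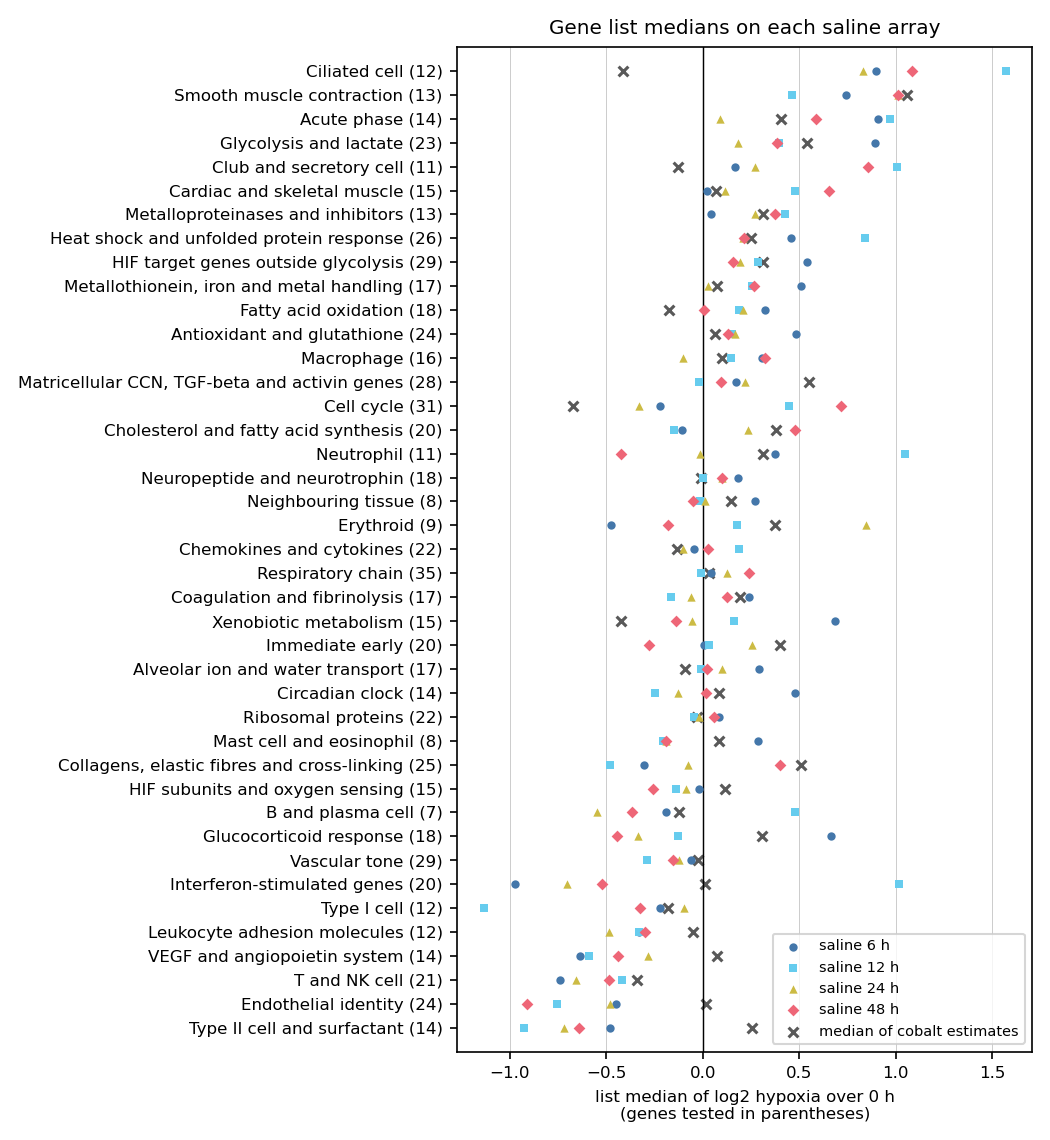
Median log2 ratio of hypoxia over 0 h (x axis) of the tested members of each gene list, with the number tested in parentheses; points are the 4 saline arrays by duration and crosses the median of the cobalt estimates. Ciliated cell genes lay highest in saline at 0.83 to 1.57, and the median of interferon-stimulated genes was 1.02 at 12 h and -0.97 to -0.53 on the other arrays; the endothelial and type II cell medians became 0.33 and 0.44 with median centring.

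Epithelial lists differed from each other. Ciliated cell genes had 10 of 12 tested higher, none lower and 2 not passing, with the highest median of all lists, 1.16, and 0.83 to 1.57 on single arrays. Rsph1, a radial spoke protein, was at 1.43, 1.62, 1.41 and 1.93 (estimate 1.60 ± 0.11, 3.02-fold, adjusted p = 3.09e-05). The axonemal proteins Tekt4 (1.51 ± 0.14), Tekt1 (1.31 ± 0.14) and Rsph4a (1.15 ± 0.11) were also above 0 on every array.

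Club and secretory cell genes rose in 5 of 11 cases and fell in none, with a median of 0.45, and 0.91 without the 24 h array. Scgb1a1, the club cell secretory protein, was at 1.96, 1.01, 0.63 and 0.86 (estimate 1.11 ± 0.18, adjusted p = 0.0015), highest at 6 h. Scgb3a2, a secretoglobin of small airways, was at 1.53, 1.78, 1.67 and 2.11 (estimate 1.77 ± 0.13, adjusted p = 3.09e-05). Cyp2f4, a club cell monooxygenase, was at 1.06, 0.66, 1.48 and 2.01 (estimate 1.30 ± 0.24, adjusted p = 0.00235). On the 12 h array, where Scgb3a1, Gp2 and Agr2 peaked, Cyp2f4 had its lowest ratio.

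Type II cell and surfactant genes fell in 12 of 14 cases and rose in none, with a median of -0.65 that became 0.44 with median centring. The red signal of 5 of these genes was saturated on at least 1 saline array. Of the other 9, 7 fell and none rose, with a median of -0.62. Nkx2-1, the transcription factor of lung epithelium, was at -0.63, -0.90, -0.74 and -0.76 (estimate -0.76 ± 0.09, 1.69-fold lower, adjusted p = 0.000252). Surfactant protein C (Sftpc) was at -1.80, -1.75, -1.72 and -1.90, but its red signal was saturated on all 4 arrays and its other probe gave 0.03, so that no fold is given. Surfactant protein A (Sftpa1), saturated on 3 arrays, was at -0.89 ± 0.09 and turned to 0.57 with median centring. Surfactant transcripts, which define lung, were thus among the brightest signals on these arrays.

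Type I cell genes fell in 5 of 12 cases and rose in none, with a median of -0.35 that turned to 0.35 with median centring. It was -0.57 without the 24 h array and -0.16 without the 12 h array, where the list median was -1.14. Vegfa, which these cells express, is counted here as well. The water channel Aqp5 was at -1.38, -2.16, -0.47 and -0.34 (estimate -1.09 ± 0.27, adjusted p = 0.011). It was -0.73 without the 12 h array and turned to 0.20 with median centring. Ager, the receptor RAGE of the type I cell membrane, was at -0.07, -2.20, -1.04 and -0.91 (estimate -1.05 ± 0.26, adjusted p = 0.00986). It was -0.67 without the 12 h array and turned to 0.16 with median centring.

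**Figure D4:**
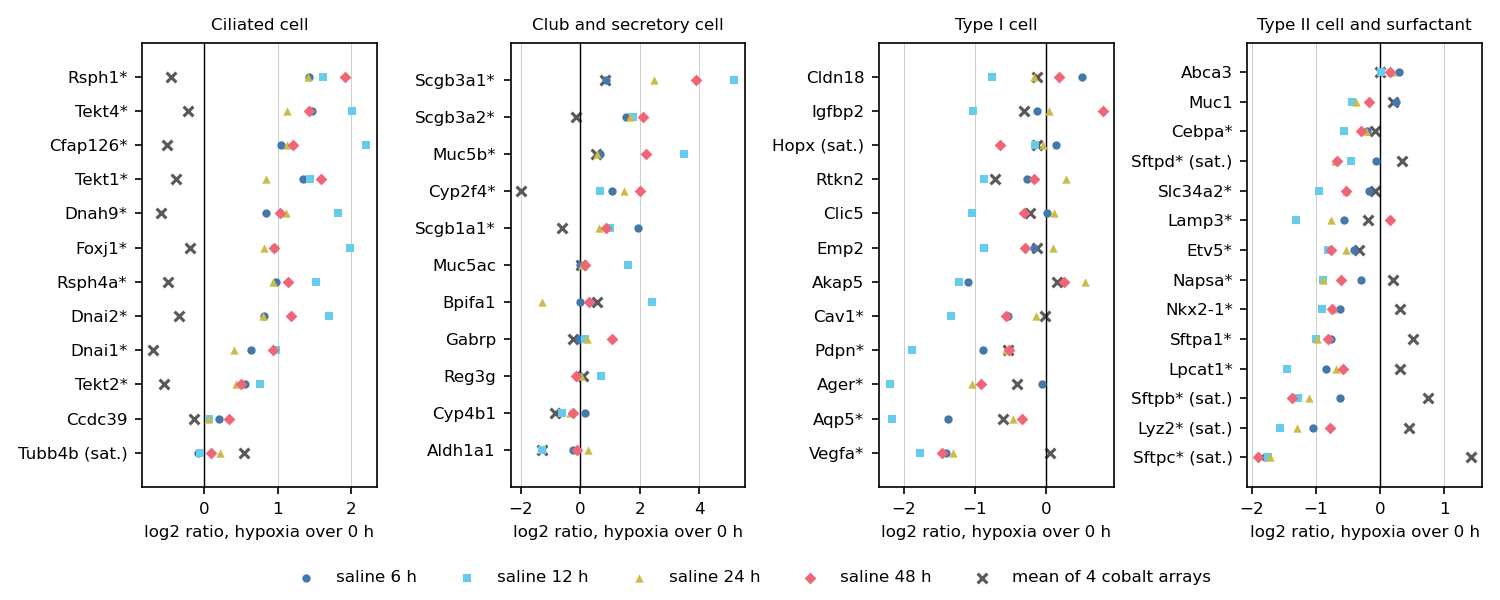
Log2 ratios of hypoxia over 0 h (x axis) of tested members of 4 epithelial lists; points are the 4 saline arrays by duration, crosses the cobalt mean, an asterisk marks members called in saline and "sat." a red signal saturated on all 4 saline arrays. Saline points of ciliated genes lie above the cobalt mean for all but Tubb4b, and type II genes mostly lie below 0 in saline, a median of -0.65 that became 0.44 with median centring.

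Alveolar ion and water transport genes rose in 6 of 17 cases and fell in 5. The aquaglyceroporin Aqp3 was at 2.73, 2.11, 1.30 and 0.57 (estimate 1.68 ± 0.32, adjusted p = 0.00299) and the sodium pump subunit Atp1b1 at 2.38, 1.51, 1.20 and 0.83 (estimate 1.48 ± 0.21, adjusted p = 0.000761). Both were highest at 6 h and lowest at 48 h. Sgk1, a kinase that activates the epithelial sodium channel, rose by 1.06 ± 0.15. Its channel subunit Scnn1a did not pass (0.55 ± 0.23, adjusted p = 0.0872), with 1.63 at 6 h and 0.19 without that array. It passed without the 48 h array (0.78, adjusted p = 0.033) and with median centring (1.36).

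Of the genes that mark T and NK cells, 15 of 21 fell and none rose, with a median of -0.59 and single arrays from -0.74 to -0.42; with median centring it was -0.19. Perforin (Prf1), the pore protein of cytotoxic cells, was at -1.45, -0.98, -1.48 and -1.21 (estimate -1.28 ± 0.14, adjusted p = 0.000174). Gzmm, a granzyme of NK cells, fell by 1.13 (SE 0.14; -0.34 and not passing with median centring) and Tbx21, the transcription factor T-bet, by 0.72 (SE 0.07). The natural killer receptor Ncr1 was lower too, at -0.42 ± 0.06. Of 7 B and plasma cell genes, 1 rose and 3 fell. Mzb1, a plasma cell chaperone, was at 0.37, 2.40, -0.13 and 1.22. Its call (0.97 ± 0.31, adjusted p = 0.0343) ended without the 12 h or the 48 h array (adjusted p = 0.1 for both) or in the saline arrays alone (0.095), and it was 0.49 without the 12 h array.

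The myeloid lists are set here against all genes, of which 21.8% were higher and 18.3% lower. Among 16 macrophage genes 4 rose (25%) and 1 fell (6.25%). Ctsk, a collagen-degrading cathepsin, was at 0.93 ± 0.15, the mannose receptor Mrc1 at 0.84 ± 0.21 and the growth factor receptor Csf1r at -0.74 ± 0.18 (-0.20 and not passing with median centring). Of 11 neutrophil genes, 1 rose and 1 fell (9.09% each). The decoy receptor Il1r2 was at 2.73, 2.19, 0.60 and 0.06 (estimate 1.39 ± 0.40, adjusted p = 0.0195), a call that ended without the 6 h or the 12 h array (adjusted p = 0.081 and 0.085). Csf3r, the receptor of G-CSF, fell by 0.71 (SE 0.12). No erythroid gene of 9 passed, nor did any of 8 genes of neighbouring tissues such as thyroid, oesophagus, fat and liver, of which 7 others were too dim to be tested. Of 8 mast cell and eosinophil genes, 2 fell, among them the stem cell factor receptor Kit (-0.67 ± 0.13, and -0.36 as the mean over its probes).

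Of 22 chemokines and cytokines, 5 were higher (22.7%) and 4 lower (18.2%), near the shares of all genes (21.8% and 18.3%). Il6 and Tnf did not pass the filter on dim probes. The monocyte chemokine Ccl2 was at 1.39, 1.47, 1.96 and 2.31 (estimate 1.78 ± 0.14, 3.44-fold, adjusted p = 5.25e-05), and Ccl7, which shares its receptor, rose by 1.01 ± 0.10. The alarmin Il33 was at -1.17, -1.41, -0.99 and -0.92 (estimate -1.12 ± 0.10, adjusted p = 9.02e-05), and Il1a fell by 0.92 (SE 0.09). Il33 was -0.70 as the mean over its probes and did not pass with median centring (-0.05). Ccl2 was highest on the 48 h array and Il33 lowest on the 12 h array.

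Interferon-stimulated genes set the 12 h array apart. The list median was 1.02 at 12 h, against -0.97 at 6 h, -0.70 at 24 h and -0.53 at 48 h, and the median of estimates was -0.26, or -0.76 without the 12 h array and -0.01 without the 6 h array. With median centring it turned to 0.58. Of 20 genes, 4 were lower (20%, against 18.3% of all genes) and none higher (against 21.8%). Isg15, a ubiquitin-like modifier, was at -1.52, 2.41, -0.86 and -1.11, the antiviral GTPase Mx1 at -1.69, 2.19, -0.73 and -0.75, and the chemokine Cxcl10 at -0.71, 3.58, 0.33 and 2.04. These 3 genes were picked after their values were seen, and none passed the test over the 4 arrays. Irf1, an interferon-induced transcription factor, did not follow them, at -0.58, -0.52, -0.92 and -0.69 (estimate -0.68 ± 0.11, adjusted p = 0.00161), a call lost with median centring (-0.18).

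The chaperone list (heat shock and unfolded protein response) had 15 of 26 genes higher and 2 lower, with a median of 0.41 and the highest list median, 0.84, at 12 h. The mitochondrial chaperonin Hspe1 was at 0.62, 1.14, 0.80 and 0.72 (estimate 0.82 ± 0.09, adjusted p = 0.000193). The small heat shock protein Hspb1 rose by 0.87 ± 0.14, and Pdia3, a disulphide isomerase of the endoplasmic reticulum, fell by 1.02 (SE 0.16), which did not pass with median centring (-0.23).

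Antioxidant and glutathione genes rose in 8 of 24 cases and fell in 4, with a median of 0.22. Sod2, the superoxide dismutase of mitochondria, stood at 1.67, 1.01, 0.89 and 0.89 (estimate 1.11 ± 0.14, adjusted p = 0.000338). The glutathione transferase Gstp1 rose by 0.68 ± 0.09, and Keap1, the inhibitor of NRF2, fell by 0.57 (SE 0.08; -0.10 and not passing with median centring). Extracellular Sod3 was at -0.998 ± 0.12 and turned to 0.20 with median centring.

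In metal handling 8 of 17 genes rose and 1 fell, with a median of 0.28. Metallothionein Mt1 was at 3.85, 2.25, 0.70 and 0.91 (estimate 1.93 ± 0.50, adjusted p = 0.013), and 1.29 without the 6 h array. The zinc importer Slc39a8 was at 2.04, 1.33, 1.06 and 0.78 (estimate 1.30 ± 0.19, adjusted p = 0.000761), although its 3 probes ran from 0.29 to 1.30, with a mean of 0.74. Both had their highest ratio at 6 h.

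Xenobiotic metabolism genes rose in 5 of 15 cases and fell in 2, the latter being Cyp1a1 and the flavin monooxygenase Fmo1 (-1.099 ± 0.13, adjusted p = 0.000252, and -0.16 and not passing with median centring). Cyp3a9 rose by 0.58 ± 0.11.

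Glucocorticoid response genes stood higher at 6 h than later, with list medians of 0.66 at 6 h, -0.13 at 12 h, -0.34 at 24 h and -0.44 at 48 h. Of 18 genes, 4 rose (22.2%, against 21.8% of all genes) and 5 fell (27.8%, against 18.3%). The median was -0.23, which turned to 0.73 with median centring. It was -0.43 without the 6 h array, 0.03 without the 24 h array and -0.06 without the 48 h array. Dusp1, a MAP kinase phosphatase, was below 0 on all arrays, at -1.18, -1.80, -1.11 and -1.49 (estimate -1.39 ± 0.15, adjusted p = 0.000189). Of 14 clock genes 3 rose (21.4%, near the share of all genes) and 1 fell (7.14%). The repressor Per2 was at 2.51 at 6 h and between 0.55 and 0.79 later (estimate 1.12 ± 0.29, adjusted p = 0.0134), and 0.65 without the 6 h array. Cry1, another repressor of the clock, was at 2.12, 1.04, 1.13 and 0.46 (estimate 1.19 ± 0.26, adjusted p = 0.00544). The hour of day at which tissues were taken is not in the labels.

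Immediate early genes rose in 4 of 20 cases (20%, against 21.8% of all genes) and fell in 1 (5%, against 18.3%). The orphan receptor Nr4a3 was at 1.94, 1.52, 0.54 and 0.42 (estimate 1.103 ± 0.27, adjusted p = 0.0102), but its 3 probes disagreed, the lowest being at -0.01, and their mean was 0.56. Ier3, a stress-induced survival gene, rose by 0.79 ± 0.15. Cell cycle genes rose in 3 of 31 cases (9.68%) and fell in 1 (3.23%), both below the shares of all genes. Their list medians were -0.22 at 6 h, 0.45 at 12 h, -0.33 at 24 h and 0.71 at 48 h. Cyclin E (Ccne1) was at 0.16, 1.80, 0.31 and 1.67 (estimate 0.99 ± 0.26, adjusted p = 0.0147). Its call ended without the 12 h or the 48 h array (adjusted p = 0.066 and 0.065), and it was 0.56 as the mean over its probes. The proliferation marker Mki67 did not pass (-0.11 ± 0.20, adjusted p = 0.693), with -0.31 to 0.04 when 1 array was left out.

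Coagulation and fibrinolysis genes rose in 5 of 17 cases and fell in 1. Tissue factor (F3), which starts coagulation, was at 1.58, 0.91, 0.67 and 1.18 (estimate 1.08 ± 0.13, adjusted p = 0.000298). Plaur, the urokinase receptor, rose by 0.65 ± 0.17. Acute phase genes rose in 6 of 14 cases and fell in 1, with a median of 0.58. Haptoglobin (Hp), which binds free haemoglobin, was at 2.23, 2.12, 0.71 and 1.33 (estimate 1.60 ± 0.28, adjusted p = 0.00211). The protease inhibitor Serpina3n was at 2.71, 2.95, 1.19 and 1.07 (estimate 1.98 ± 0.39, adjusted p = 0.00348). Both were higher on the 6 h and 12 h arrays than on the later ones. Osmr, the oncostatin M receptor, rose by 0.57 ± 0.07.

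Neuropeptide and neurotrophin genes rose in 7 of 18 cases and fell in 3, with a median of 0.10 that changed sign with the strict filter and without the 6 h array. Besides Ntrk2, neuritin (Nrn1), a neurite growth factor, was at 2.09, 2.05, 2.46 and 2.12 (estimate 2.18 ± 0.30, adjusted p = 0.000601). Gfra2, the neurturin receptor, was at -2.48, -1.78, -1.68 and -0.98 (estimate -1.73 ± 0.25, adjusted p = 0.000732). Ribosomal protein genes were split, with 7 of 22 higher and 6 lower. Of the 8 without a saturated signal, 4 were higher and none lower.

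Set against the cobalt arrays, the saline response had genes in common and genes that differed. Of all genes tested, 721 (2.99%) were called higher in both pretreatments and 699 (2.9%) lower in both. Calls were opposite for 718 genes (2.97%) higher in saline and lower in cobalt and for 428 (1.77%) the other way. The shared higher genes made up 13.7% of those higher in saline and 35% of those higher in cobalt. The shared lower genes made up 15.8% and 23.6%. For cobalt alone, 8.54% of genes were higher and 12.3% lower. The pretreatments differed in 30.1% of genes, 17.5% higher and 12.7% lower in saline than in cobalt. Pretreatment, slide, scan and dye orientation cannot be told apart in these differences, and with median centring 14960 genes were higher in saline.

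Among the named genes with the highest average that were called higher in both were Ccn3, Slurp1, Fst, Spp1, Ntrk2, Kng1 and Nrn1. Ccn3 was at 2.85 in saline and 2.74 in cobalt, and Slurp1 at 2.52 and 3.01. The 8 lowest were Cyp1a1, Cox8b, Vipr1, Hsd11b2, Plvap, Lyve1, Tmem100 and Esm1. By the test of the difference, 4 of these were lower in saline than in cobalt: Vipr1 (-2.81 and -0.92, difference -1.89, adjusted p = 0.000169), Esm1 (-2.05 and -0.93, difference -1.12, adjusted p = 0.0456), Cyp1a1 (-3.84 in saline and -1.22 in cobalt, difference -2.62, adjusted p = 5.05e-05) and Plvap (-2.26 and -1.08, difference -1.18, adjusted p = 0.00095). Bnip3 (1.67 and 1.07, difference 0.60, adjusted p = 0.081) and Slc2a1 (1.00 and 0.98, difference 0.02, adjusted p = 0.95) did not differ by the test, and Eno2 was higher in saline (1.65 and 0.84, difference 0.82, adjusted p = 0.016).

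Among gene lists, ciliated cell genes were called higher in saline than in cobalt for 11 of 12 members, with a cobalt median of -0.42. Type II cell genes were lower in saline for 9 of 14, with a cobalt median of 0.25, and endothelial genes for 14 of 24, with a cobalt median of 0.02. T and NK cell genes went down in cobalt as well, with 10 of 21 lower and none higher, and 2 members were lower in saline than in cobalt by the test of the difference. In cobalt against its own 0 h RNA, 13 of 13 smooth muscle genes and 15 of 23 glycolysis genes were higher. By the test of the difference, 8 of 13 smooth muscle genes were lower in saline than in cobalt, and of the glycolysis genes 3 were lower and 2 higher.

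The differences that led in either direction without overlap of the arrays were those of Acot1 (3.34, adjusted p = 0.0084), Cyp2f4 (3.29, adjusted p = 0.00025), Agr2 (3.27, adjusted p = 0.017) and Cyp2a3 (2.71, adjusted p = 0.0016), all higher in saline. Cyp2f4 had a cobalt estimate of -1.99. Cyp2a3, an airway monooxygenase, did not pass in saline (0.40 ± 0.29, adjusted p = 0.308), with -0.10, 0.00, 0.00 and 1.68, and had -2.32 in cobalt. It was -0.03 without the 48 h array. Lower in saline were Sftpc (-3.21, of inexact size since its red signal was saturated on all 4 saline arrays, with its other probe at 0.03), the interferon-induced tetherin Bst2 (-3.00), Scd (-2.66) and the leukocyte signalling protein Hcls1 (-2.64). Bst2 was at -2.16, -0.66, -1.42 and -1.36 in saline and 1.60 in cobalt, and its saline estimate of -1.40 turned to 0.0048 with median centring. Epas1 (difference -1.52, adjusted p = 0.00017) and Vegfa (difference -1.54, adjusted p = 0.00014) were lower in saline than in cobalt, where they were at -0.33 and 0.05.

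**Figure D5:**
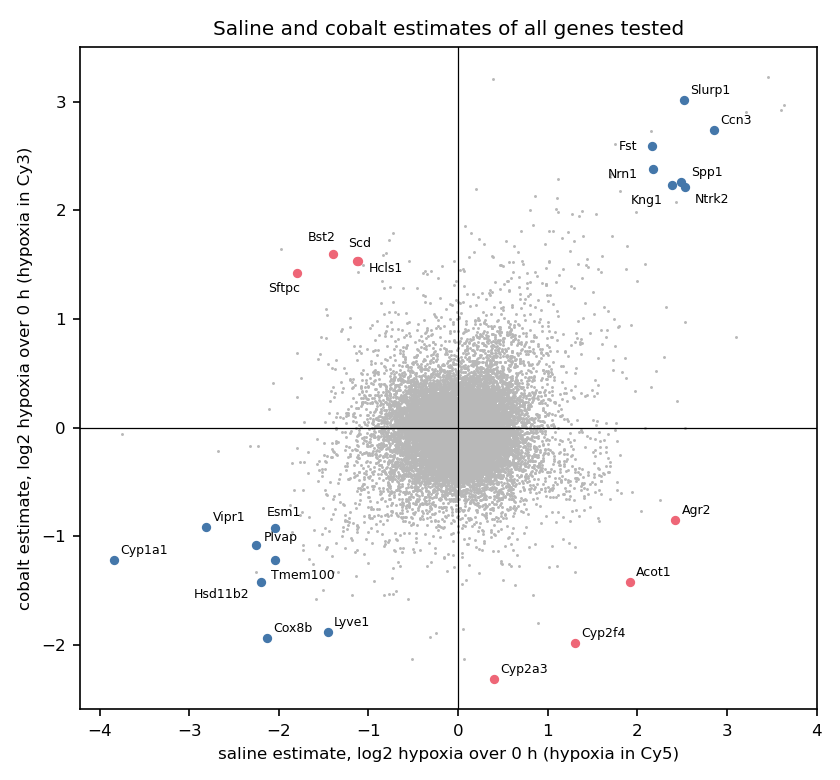
Saline estimate (x axis, hypoxia in Cy5) against cobalt estimate (y axis, hypoxia in Cy3) of log2 hypoxia over 0 h for the 24141 genes tested; blue marks named genes highest (7) and lowest (8) in both, red the 4 and 4 with the largest differences. Ccn3 and Slurp1 lie at the upper right, Cyp1a1 at the lower left, and Sftpc and Bst2 at the upper left, of which Bst2 turned to 0.0048 in saline with median centring.

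Some genes were measured in the hypoxia channel only, their 0 h signal being not well above background on any saline array. A bound for them is the bright channel's mean over that of the dim side, and it is open to dye bias. Dim signals under the lowest signal well above background were replaced by that lowest signal. For Slc1a6, Vgf, Steap1 and Rnf24 the replacement changed nothing, and the bound equals the estimate. These genes were chosen among called genes, and the bright channel alone can pass the filter, so no p-value is given. The glutamate transporter Slc1a6 was 2.95-fold higher under hypoxia and the neuropeptide precursor Vgf 2.57-fold. The metalloreductase Steap1 was 2.22-fold higher and the phosphatase subunit Ppp4r4 at least 2.1-fold. In the other direction, the ubiquitin ligase Rnf24 was 1.54-fold lower, and the adhesion molecule Ceacam1 and the T cell kinase Prkcq were at least 1.25-fold lower. All these folds were computed with the offset, which draws ratios of dim genes toward 0, so their sizes are inexact. The software's log2 ratios, computed without an offset, were 4.61 for Slc1a6, 4.43 for Vgf, 3.70 for Steap1 and 4.15 for Ppp4r4. They were -2.77 for Rnf24, -2.18 for Ceacam1 and -1.85 for Prkcq.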

How the data were processed

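Lung RNA was measured on 8 two-colour Agilent rat arrays of 45018 spots, 4 from saline and 4 from cobalt rats. Scanner files held background-subtracted and dye-normalized signals besides the raw spot intensities used here, made with Agilent Feature Extraction 9.5.1.1 per the file headers. The software's log10 ratio of red over green, per the file headers, and the deposited log2 table, which the authors oriented as hypoxia over 0 h (settled against the scanner ratios; its normalization beyond the software's is not given in the sources used here), served as alternatives.

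Background was corrected by normexp (offset 50) and ratios by loess within arrays, control spots having weight 0, in limma 3.58.1 (R 4.3.3). Outlier spots were dropped, spots of a probe averaged, signs turned by the dye in the labels, and 28419 probes kept whose red or green signal exceeded background clearly on 4 or more of the 8 arrays. The brightest probe stood for a gene; probe names were updated through RefSeq accessions (10726 of 41012 probes), symbols (5586) or synonyms (3730). limma (eBayes with a trend over intensity, 6 residual degrees of freedom) was fitted on all 8 arrays, with Benjamini-Hochberg adjustment over 24141 genes, of which 12032 had a symbol. The pipeline was tested on simulated data.

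Members and gene lists were chosen with earlier results of these data known. Named genes were the 12 highest and 12 lowest in saline, the 8 and 8 changed most in both pretreatments, the 4 and 4 with the largest saline minus cobalt differences, up to 4 bounds each way, the 2 to 4 genes of lowest p in every list and a set listed in advance, of which Acta2 and Hba-a1 were not found on the array under that name. The lists had 832 entries, of which 737 were tested, 59 were too dim and 36 were not found. Nothing in the labels says that arrays came from separate animals of one group. The p-values thus measure the spread between arrays of different duration, biological or technical. That spread is pooled over the saline and the cobalt arrays. The number of arrays limits the precision. One gene that these rules name is not reported here.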

Additional observations from a re-analysis of the deposited data

Results flagged for a closer look

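On the saline 6 h array the median of the mast cell and eosinophil genes was 0.29, against -0.21 to -0.19 on the other 3 saline arrays. The median of the antioxidant and glutathione genes on that array was 0.48, against 0.13 to 0.17 on the others. Each lay far enough from the rest of its group of 4 to pass Dixon's test, which chance alone passes in about 1 in 20 groups. Medians of 41 gene lists were examined, so about as many would be flagged by chance.

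Further results differed between saline and cobalt by the test of the difference itself, limma's contrast with adjustment over all genes. Higher in saline than in cobalt were Acot1 (3.34), Cyp2f4 (3.29), Agr2 (3.27), Cyp2a3 (2.71), Scgb1a1 (1.74), Eno2 (0.82) and Ccn2 (0.58). Lower in saline were Sftpc (-3.21), Bst2 (-3.00), Scd (-2.66), Hcls1 (-2.64), Cyp1a1 (-2.62), Vegfa (-1.54), Epas1 (-1.52), Plvap (-1.18), Nos3 (-0.79) and Des (-0.63). Sftpc rests on a red signal saturated on all 4 saline arrays. In each of these, pretreatment, slide, scan and dye orientation cannot be told apart.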

How the results depend on the processing

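The counts of higher, lower and differing genes stayed within 1.5 times of the values given under every alternative except median centring, which gave 11990 higher, 2269 lower and 14960 genes higher in saline than in cobalt. Leaving out 1 saline array gave 4081 to 4673 higher and 3470 to 4071 lower genes, and 3563 to 4126 higher and 2527 to 3155 lower in saline than in cobalt. Among named genes, 13 lost their call in the saline arrays alone and 11 with scaling between arrays. Calls were lost for 13 named genes without the 6 h array, 15 without 12 h, 12 without 24 h and 16 without 48 h. Not every lost call is marked beside its gene above. With median centring the medians turned for oxygen sensing (0.30), endothelial (0.33), vascular tone (0.25), adhesion (0.28), type II (0.44), type I (0.35), interferon-stimulated (0.58), glucocorticoid (0.73), collagen (0.58), mast cell (0.42) and B cell genes (0.10), and from near 0 for ion transport (0.86), clock (0.37), immediate early (0.87) and ribosomal genes (1.27). Named genes called in saline that turned with it were Bst2 (0.0048), Egln2 (0.20), Acadm (0.74), Srebf1 (0.16), Icam1 (0.47), Icam2 (0.36), F11r (0.19), Mmp2 (0.48), Sftpa1 (0.57), Lyz2 (0.30), Ager (0.16), Cav1 (0.39), Aqp5 (0.20), Tpsab1 (0.42), Psmb8 (0.18), Ifi27 (0.71), Tap1 (0.11), Sod3 (0.20), Ftl1 (0.60), Nr3c1 (0.43), Jund (0.071), Ccnd1 (0.59), Rplp1 (0.60) and Rps6 (0.85), and, of those not called, Edn1 (0.36), Hdc (0.42), Car1 (0.11), Alas2 (0.50) and Mki67 (0.04). The software's log ratio moved medians to -0.88 (VEGF), -0.42 (vascular tone), 1.02 (club cell), -0.45 (interferon-stimulated), -0.46 (B cell), 0.895 (acute phase) and 0.34 (neuropeptide). Other medians moved by over 1.5 times included, with no filter, 0.15 (fatty acid oxidation), 0.18 (metalloproteinase) and -0.11 (glucocorticoid), with the strict filter 0.78 (club cell) and 0.28 (cell cycle), and as the mean over probes -0.10 (oxygen sensing), 0.13 (fatty acid oxidation) and 0.13 (metal handling). The neuropeptide median was -0.086 with the strict filter and ran from -0.00032 to 0.13 with 1 saline array left out. The cause of these turns was not tested beyond the trend of ratios with intensity given above. Replicate numbers are not in the labels, so the pairing tried was that of saline and cobalt arrays of one duration: with duration as a block 5267 genes were higher and 4516 lower. Saturated and dim spots limit the size of the ratios.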
